A study of Mus musculus with 6 samples.

Results

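The ATAC-seq peaks described here lay in copies of ERVL endogenous retroviruses and of the related mammalian apparent LTR retrotransposons (MaLR). ATAC-seq cuts accessible DNA with a transposase, so the number of tags in a peak measures how open that stretch of chromatin was. A peak was a member when the annotation placed it in an intron or in Intergenic sequence and named its repeat as ERVL or ERVL-MaLR. This gave 8119 of 175929 peaks (4.61%), 6804 of them MaLR and 1315 ERVL. The annotation counted 5084 members as Intergenic and put 3035 in an intron, and it named repeats only for these 2 kinds of region, so copies that overlap exons or promoters are not among them.

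The cells were AML1-ETO9a (AE9a) leukaemia cells, a mouse model of acute myeloid leukaemia made by retroviral transfer of a truncated AML1-ETO fusion protein together with GFP. They carried 1 floxed Usp18 allele (Usp18+/f) and UBCER-Cre, a Cre recombinase that tamoxifen activates and that the ubiquitin C promoter drives in all tissues. When the recipient mice were sick they were injected with oil or with tamoxifen, and 3 days after the first injection GFP+ Lin- c-Kit+ AML cells of the spleen were sorted. There were 3 libraries after oil (replicates 1, 2 and 4) and 3 after tamoxifen (replicates 1, 3 and 4). Both groups carried the same alleles, the Cre and the fusion protein, so loss of the floxed Usp18 copy and the drug itself cannot be told apart. The study describes the recipients as wild-type C57BL/6 mice. The series text calls the libraries biological replicates. For the RNA-seq of these cells the study's methods name 2 sorted sets with 3 mice per group, of which 1 set served for paired ATAC-seq. Elsewhere they state that ATAC-seq was run in duplicates. No label ties a library to a mouse, so the p-values measure the spread between these libraries, which may be technical in part.

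ERVL elements descend from ancient retroviruses, and MaLR elements are shorter relatives without genes of their own that were copied by ERVL enzymes. Most copies are now solo long terminal repeats (LTRs), which once held the viral promoter and can still hold binding sites for host transcription factors. The MT and ORR1 families are specific to rodents, while MLT1 copies are old enough to be shared with humans. MERVL and its LTR MT2_Mm are known for their activity in the early mouse embryo, and host proteins such as TRIM28, SETDB1 and KDM1A keep ERVL copies silent in most cells. RUNX factors and ETS factors such as PU.1 bind many enhancers of blood cells, and AML1-ETO keeps the DNA-binding domain of RUNX1.

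The sequences below show where ETS and RUNX motifs sit in these repeats. Some ORR1 peaks shared a stretch of 20 bases around the ETS motif GGAAGT, which 5.5% of them held in their central 200 bp. Only peaks with these exact 20 bases could be shown, so their agreement there was fixed by the choice. Among such peaks of ORR1A4, ORR1B1, ORR1B2 and ORR1C2, the copies were picked by the most tags after oil, once the values were seen. They are given on the minus strand of mm10, with the ETS motif in capitals.
ORR1A4 near Ddx47, chr6:135002152-135002195: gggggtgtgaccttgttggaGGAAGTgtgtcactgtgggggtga
ORR1B1 near Smchd1, chr17:71489928-71489971: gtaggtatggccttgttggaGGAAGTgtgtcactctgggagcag
ORR1B2 near Slc2a7, chr4:150155935-150155978: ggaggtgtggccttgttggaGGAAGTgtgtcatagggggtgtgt
ORR1C2 near 4921525O09Rik, chr13:52062082-52062125: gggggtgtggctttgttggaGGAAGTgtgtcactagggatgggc

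The central 200 bp of the 4 higher and the 4 lower members with the smallest adjusted p follow, with the only called MERVL-int peak between them. They are given from the plus strand of mm10, with ETS motifs (GGAAGT or its complement) and RUNX motifs (TGTGGT or its complement) in capitals. The MER74B, ORR1E, MTEb, MER54A and MERVL-int peaks were higher after tamoxifen, and the MT2B1, MLT1C, MLT1K and ORR1D1 peaks were lower.
MER74B near Egr3, chr14:69979027-69979226: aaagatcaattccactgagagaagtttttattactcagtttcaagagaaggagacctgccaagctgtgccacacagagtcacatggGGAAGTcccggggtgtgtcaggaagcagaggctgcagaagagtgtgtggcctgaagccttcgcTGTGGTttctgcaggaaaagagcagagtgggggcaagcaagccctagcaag
ORR1E near Rpap3, chr15:97520047-97520246: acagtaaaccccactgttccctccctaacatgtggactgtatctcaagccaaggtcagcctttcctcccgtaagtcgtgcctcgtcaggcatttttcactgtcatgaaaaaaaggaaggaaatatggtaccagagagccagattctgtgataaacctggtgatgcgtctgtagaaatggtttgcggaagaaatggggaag
MTEb near Noct, chr3:51151577-51151776: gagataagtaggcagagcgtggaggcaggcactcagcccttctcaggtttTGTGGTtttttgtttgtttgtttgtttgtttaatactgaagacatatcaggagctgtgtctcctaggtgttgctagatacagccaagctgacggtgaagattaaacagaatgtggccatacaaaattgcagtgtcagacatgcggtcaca
MER54A near Htr7, chr19:36006386-36006585: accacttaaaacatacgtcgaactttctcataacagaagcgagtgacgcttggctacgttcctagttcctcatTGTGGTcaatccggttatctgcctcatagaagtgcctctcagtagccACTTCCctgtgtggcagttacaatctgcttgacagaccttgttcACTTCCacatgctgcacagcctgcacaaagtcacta
MERVL-int near Cept1, chr3:106589956-106590155: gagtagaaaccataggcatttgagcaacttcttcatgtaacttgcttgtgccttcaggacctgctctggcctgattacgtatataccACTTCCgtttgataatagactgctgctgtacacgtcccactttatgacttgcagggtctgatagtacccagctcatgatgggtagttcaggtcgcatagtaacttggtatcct
MT2B1 near Snord52, chr17:34946666-34946865: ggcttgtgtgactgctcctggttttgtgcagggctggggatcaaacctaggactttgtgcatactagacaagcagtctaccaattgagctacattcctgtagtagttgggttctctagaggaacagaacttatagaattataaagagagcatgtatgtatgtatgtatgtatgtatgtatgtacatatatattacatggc
MLT1C near Glo1, chr17:30616262-30616461: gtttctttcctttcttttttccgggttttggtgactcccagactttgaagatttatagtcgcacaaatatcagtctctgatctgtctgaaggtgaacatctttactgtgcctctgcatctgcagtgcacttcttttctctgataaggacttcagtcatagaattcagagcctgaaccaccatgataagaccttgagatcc
MLT1K near 8030443G20Rik, chr4:108960658-108960857: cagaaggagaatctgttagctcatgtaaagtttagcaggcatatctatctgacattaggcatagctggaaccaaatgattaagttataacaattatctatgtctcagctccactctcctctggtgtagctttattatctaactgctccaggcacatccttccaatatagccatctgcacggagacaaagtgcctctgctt
ORR1D1 near Nhlrc2, chr19:56578072-56578271: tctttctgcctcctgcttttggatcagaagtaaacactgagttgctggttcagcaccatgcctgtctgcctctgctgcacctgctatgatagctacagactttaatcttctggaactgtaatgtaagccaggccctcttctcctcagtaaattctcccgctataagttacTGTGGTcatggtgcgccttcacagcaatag
Of the higher peaks, MER54A held 1 RUNX and 2 ETS motifs, MER74B 1 of each, MTEb 1 RUNX motif, MERVL-int an ETS motif and ORR1E neither. Of the lower ones, ORR1D1 held 1 RUNX motif and the others neither.

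The 6 libraries held 57358372 to 74667822 tags in all, of which 17498116 to 21085920 lay in peaks. The library tamoxifen replicate 4 stood apart from the other two of its group. Over the members it correlated with the 3 oil libraries at Pearson's r of 0.936 to 0.944 and with tamoxifen replicates 1 and 3 at 0.913 and 0.915, whereas those 2 correlated with each other at 0.945. These correlations are across peaks, which are not independent replicates. For the sorted cell type, 9 of 10 progenitor genes, Kit, Cd34 and Runx1 among them, had a peak within 1000 bp of a start site, with summed normalised tags of 6140 to 6290 after oil and 6290 to 6870 after tamoxifen. Mpo, which encodes a myeloid granule enzyme, had none. Of 8 T-cell genes 3 had such a peak (sum 208 to 248 after oil and 185 to 196 after tamoxifen), without Cd3e, Cd4 or Cd8a. Of 9 mature myeloid genes 2 had one (48.8 to 50.7 and 51.2 to 71.3), without Ly6g, Csf1r or S100a8. Of 9 erythroid genes 8 had one (4700 to 4840 and 4440 to 4620). The part of other cells in the results was not tested.

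ERVL and MaLR peaks were weaker than most. They held 2.56% to 2.68% of the tags in peaks after oil and 2.56% to 2.76% after tamoxifen, against 4.61% of the summed peak length. The difference in means, 0.0119 percentage points, was smaller than the spread between libraries (2.61% ± 0.0641 against 2.63% ± 0.114, SD, n = 3 each). Their median normalised tag count was 39.1, against 50.8 over all peaks and 49.5 for intron and Intergenic peaks outside repeats. This was not particular to them, since the medians of ERVK and ERV1 peaks, the other LTR classes, were 38.4 and 42.4. The members ranged from 11.9 to 889 normalised tags. Although they are repeats, most could be placed in the genome, since 97.7% of them had a centre in which at least 80% of the 50-base words occurred once in mm10.

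None of the strongest members passed the test. An ORR1D2 copy in intron 33 of Uggt2, which encodes a folding sensor of the endoplasmic reticulum, had the most tags after oil. It held 920, 879 and 879 normalised tags after oil and 878, 921 and 859 after tamoxifen (log2 fold change -0.01, SE 0.08, adjusted p = 0.996). The groups overlapped there. An MLT1A0 copy near Rasl11a had 740 to 813 normalised tags after oil and 766 to 808 after tamoxifen (log2 fold change 0.00, SE 0.08). An ORR1E copy in intron 2 of Cradd had 634 to 702 and 668 to 844 (log2 fold change 0.15, SE 0.10, adjusted p = 0.726). A pair of MLT1J copies, near Chst15 and near Tpra1, lay between 612 and 670 in all 6 libraries. The strongest copies of the other groups were an MTEa copy near Optc (615 to 670 after oil, 622 to 677 after tamoxifen), an MLT2D copy near Adra2a (527 to 586 and 475 to 589), an MT2B1 copy in Man1c1 (370 to 382 and 360 to 371) and an MLT-int copy near Serpinb1c (218 to 228 and 198 to 213), and none of them was called.

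Tamoxifen was compared with oil to ask how the cells' chromatin differed after Usp18 deletion was induced. The levels of ERVL and MaLR peaks as a whole did not move one way. Their median log2 fold change was -0.01, against 0.00 over all peaks and 0.01 for intron and Intergenic peaks outside repeats. DESeq2 was fitted on all peaks, and a call needed more than a 2-fold difference together with a Benjamini-Hochberg adjusted p under 0.05. All 8119 members were tested. Of them 83 were called higher and 9 lower, 92 in all or 1.13%, against 0.641% of all peaks. In each direction the background was 0.575% higher and 0.0659% lower. The same call was made for 0.716% of all intron and Intergenic peaks, 1.02% of 3348 ERVK peaks and 1.36% of 957 ERV1 peaks, the other classes of LTR elements. With no fold limit 150 members were higher and 17 lower, against 1.21% and 0.167% of all peaks. edgeR called 132 members (1.63%), against 1.01% of all peaks. At an unadjusted p under 0.05 the members gave 898 peaks, 11.1% of them, against a background of 8.98%. The 3 tamoxifen libraries lay above the 3 oil libraries in 13.2% of members and below them in 9.79%, against 11.9% and 10% of all peaks.

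The count of calls rested on the libraries used. Without tamoxifen replicate 4, 187 members were called, 120 higher and 67 lower, against 1.52% of all peaks. Without each of the other 5 libraries, 28 to 54 were called, the fewest without tamoxifen replicate 3, against 0.202% to 0.373% of all peaks. The share of calls that were higher was 64.2% without tamoxifen replicate 4 and 90.2% with all libraries, and over all peaks it was 71.5% and 89.7%. In 60 of the 83 higher peaks, and in all 9 lower ones, tamoxifen replicate 4 was the tamoxifen library nearest to oil.

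**Figure D1:**
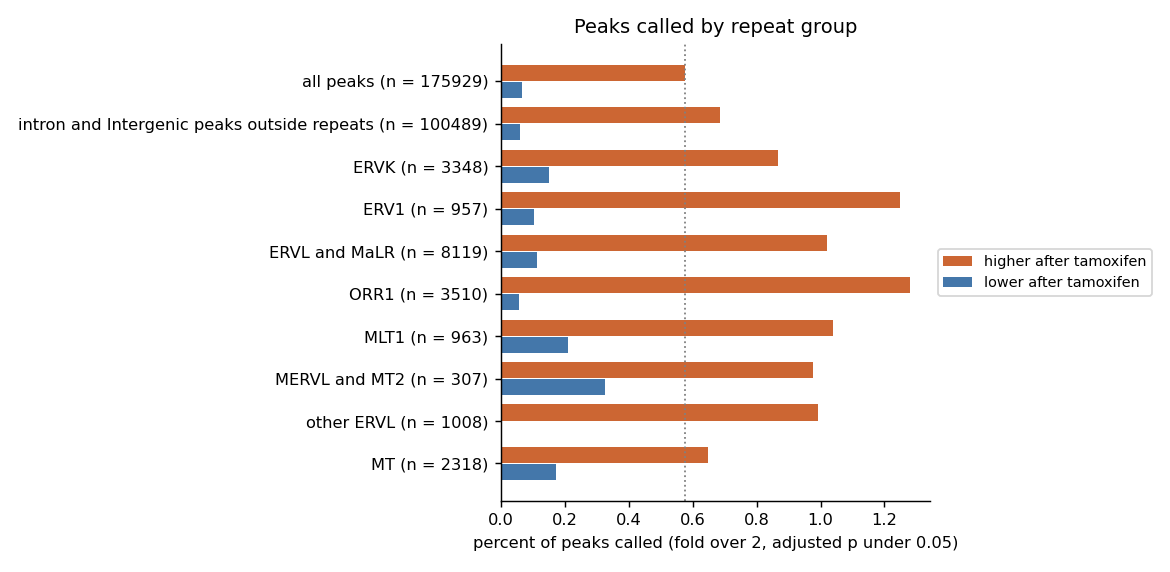
Percent of peaks called higher (orange) and lower (blue) after tamoxifen in each repeat group, with the number of peaks in brackets; the dotted line marks the 0.575% of all peaks that were called higher. ORR1 peaks reached 1.28% higher, and MT peaks, at 0.647%, lay near the line.

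The groups of elements differed in size and in their share of calls. ORR1, the largest with 3510 peaks, had 45 higher and 2 lower peaks (1.34% called). MT, with 2318 peaks, had 15 higher and 4 lower (0.82%). The MLT1 group had 963 peaks, 10 higher and 2 lower (1.25%). The other ERVL names had 1008 peaks and 10 higher ones, and MERVL with the MT2 LTRs had 307 peaks, 3 higher and 1 lower. A last group of 13 other MaLR peaks had no call. The median log2 fold change was 0.01 for ORR1, 0.03 for MLT1, -0.03 for other ERVL, -0.06 for MT and -0.06 for MERVL and MT2. Without tamoxifen replicate 4 the medians were -0.01 for ORR1, 0.01 for MLT1, -0.07 for other ERVL, -0.09 for MT and -0.14 for MERVL and MT2. Over the scalings tried the median of ORR1 ran from 0.00 to 0.03, on either side of 0, and the other medians kept their sign. No difference between these groups was tested.

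Among 181 repeat names, 34 had at least 50 peaks, and the 10 most frequent held 51.9% of the members. The most frequent were MTD with 901 peaks (9 higher, 1 lower), ORR1B1 with 609 (8 higher), ORR1E with 528 (8 higher), ORR1D2 with 407 (3 higher) and MTC with 354 (1 lower). They were followed by ORR1B2 with 335 (6 higher), ORR1A2 with 311 (3 higher), ORR1F with 280 (8 higher), MTEa with 251 (2 higher) and ORR1D1 with 234 (3 higher, 1 lower). Of the names with at least 50 peaks, MLT1K and MT2B1 had the largest share called, 3.85% each from 2 calls in 52 peaks, followed by ORR1F with 2.86%.

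Repeat names did not all shift alike. In MTC peaks the median log2 fold change was -0.12, and the median of log2(normalised tags + 1) against the mean of oil was -0.134, -0.196 and -0.051 in tamoxifen replicates 1, 3 and 4, and -0.005, -0.003 and 0.038 in oil replicates 1, 2 and 4. All 3 tamoxifen libraries were below all 3 oil libraries. In ORR1E peaks it was 0.07, with library medians of 0.063, 0.088 and 0.095 after tamoxifen and 0.004, -0.011 and 0.026 after oil, so here tamoxifen lay above oil. Among the 34 names with at least 50 peaks, the highest medians belonged to ORR1G (0.18, 50 peaks), MLT1J (0.09, 54 peaks) and ORR1E, and the lowest to MT2B (-0.14, 59 peaks), MTC and RMER10A (-0.10, 104 peaks). MTC and ORR1E are thus extremes ranked on the same libraries, so the separation of their groups follows in part from that ranking. The library medians of the groups were also apart in ORR1G and MT2B, and they overlapped in MLT1J and RMER10A. Leaving out 1 library moved ORR1G to 0.089 (tamoxifen replicate 1), MLT1J to 0.035 (tamoxifen replicate 3), MT2B to -0.057 (tamoxifen replicate 3) and RMER10A to -0.067 (oil replicate 4). For MTC the range over these omissions was -0.173 to -0.104 and for ORR1E 0.067 to 0.080. Over the scalings and tools tried, the median of MTC stayed between -0.14 and -0.11 and that of ORR1E between 0.06 and 0.09. These are small shifts of whole groups, well under the fold of 2 required for a call.

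MERVL and MT2 are the elements best known for activity in the embryo. No peak was annotated as MT2_Mm, the LTR of MERVL, and 7 as MERVL-int, the internal part. The median log2 fold change of those 7 was -0.04, from -0.24 without tamoxifen replicate 4 to 0.09 without tamoxifen replicate 3, and that of 40 MERVL_2A-int peaks -0.04. One MERVL-int peak was called, near Cept1, at chr3:106589933-106590177, whose sequence is given above. It held 5.51, 7.80 and 6.28 normalised tags after oil and 27.1, 26.7 and 20.5 after tamoxifen (log2 fold change 1.92, SE 0.52, adjusted p = 0.0226). Its groups did not overlap, but counts were low, 63.6% of its 50-base words were unique, and the call was lost when any 1 of 5 libraries was left out, all but tamoxifen replicate 4. An MT2A copy in an intron of Ksr2, a scaffold of MAP kinase signalling, rose from a mean of 9.55 ± 4.46 (SD, n = 3) to one of 40.8 ± 3.65 normalised tags (n = 3, log2 fold change 2.07, adjusted p = 0.000409).

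The peaks called higher were distal and mostly placed uniquely, as most members were. None lay within 3000 bp of a start site, against 10.1% of all members. Of the 83, 37 lay in introns, where 37.4% of all members lay. They came from 39 repeat names, and 82 had a mostly unique centre, against 97.7% of all members. The authors' peak list for tamoxifen alone held 32 of them and both lists held 51, while 13.6% of all members were in the tamoxifen list alone. The lists come from these same libraries, so they give no separate support for the calls. The 32, ORR1B2 near Hpcal1 and MERVL-int near Cept1 among them, entered the merged peaks only through the group where they were high. Their p-values are not free of that choice. Across these 83 the median was 32.0, 30.2 and 34.1 normalised tags in oil replicates 1, 2 and 4, and 69.6, 89.1 and 66.1 in tamoxifen replicates 1, 3 and 4. Their median log2 fold change was 1.26, and the largest 2.29.

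**Figure D2:**
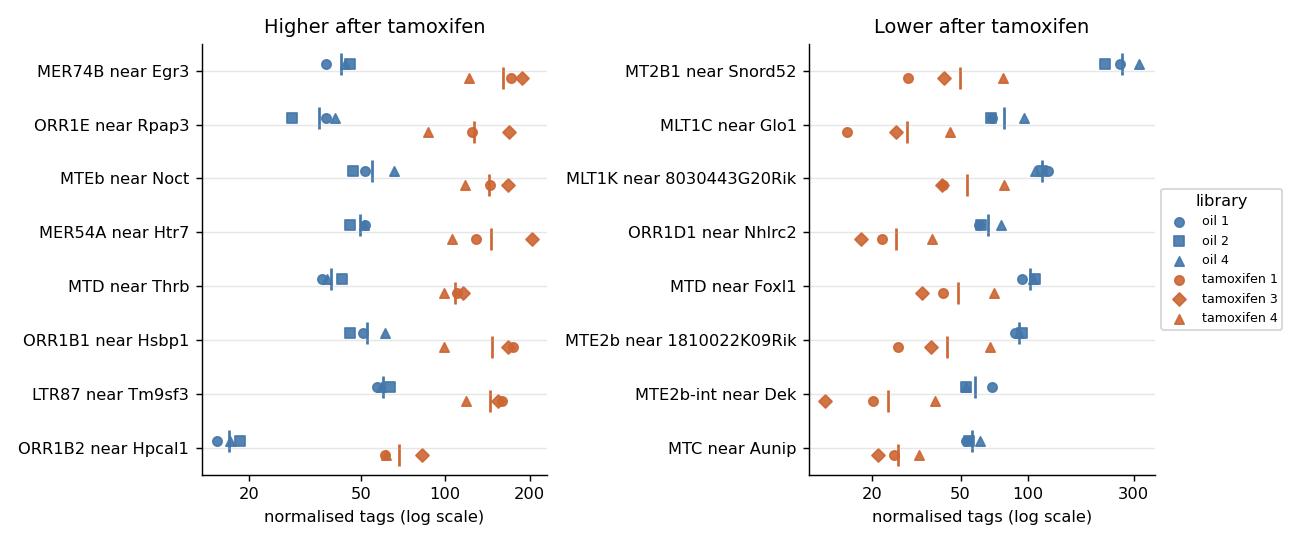
Normalised tags of the 8 higher and 8 lower members with the smallest adjusted p, on a log axis, one row per peak and one marker per library (oil blue, tamoxifen orange; the upright bar is the group mean). In every row the 2 groups are apart, which was a condition for being shown that all 83 higher and all 9 lower members met. In the lower peaks tamoxifen replicate 4 (orange triangle) is the tamoxifen library nearest to oil.

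The member with the smallest adjusted p was a MER74B copy in intron 4 of Pebp4, which lay 98319 bp from the start of Egr3, an immediate early transcription factor gene. It held 37.5, 45.8 and 43.9 normalised tags in oil replicates 1, 2 and 4 and 172, 187 and 121 in tamoxifen replicates 1, 3 and 4. Each tamoxifen library was above each oil library by at least 2.6-fold, and the log2 fold change was 1.91 (SE 0.23, adjusted p = 2.52e-13). An ORR1E copy at chr15:97519980-97520312, Intergenic and 185676 bp from the start of Rpap3, a cochaperone gene, rose from 37.5, 28.3 and 40.3 normalised tags to 125, 169 and 86.6 (log2 fold change 1.84, SE 0.27, adjusted p = 1.59e-08). An ORR1E-int peak, the internal part of the element, lay 429 bp away and was called higher too, with means of 20.7 ± 2.71 in oil and 69.8 ± 31.7 in tamoxifen libraries (SD, n = 3 for both). An MTEb copy at chr3:51151485-51151867, 72771 bp from Noct, a gene with circadian expression, rose from 51.8, 46.8 and 65.4 to 144, 167 and 118 (log2 fold change 1.38, SE 0.22, adjusted p = 2.56e-07). An ORR1D1 copy 22716 bp from it was also called higher.

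Further calls lay inside genes. A MER54A copy in intron 1 of Htr7, a serotonin receptor gene, held 51.8, 45.8 and 51.1 normalised tags after oil and 129, 203 and 106 after tamoxifen (log2 fold change 1.55, SE 0.24, adjusted p = 2.7e-07). An MTD copy in intron 2 of Thrb, which encodes a thyroid hormone receptor, held 36.4, 42.9 and 37.7 after oil and 110, 116 and 98.8 after tamoxifen (log2 fold change 1.47, SE 0.23, adjusted p = 4.38e-07). In these 2 peaks the groups were clearly apart, with tamoxifen replicate 4 the lowest of its group. An ORR1B1 copy in intron 13 of Cdh13, a cadherin gene, with its nearest start at Hsbp1, rose from 50.7, 45.8 and 61.0 to 174, 167 and 98.8 (log2 fold change 1.48, SE 0.24, adjusted p = 5.97e-07). An LTR87 copy in intron 8 of Pik3ap1, an adaptor of PI3 kinase in immune cells, with its nearest start at Tm9sf3, rose from 57.3, 63.4 and 59.2 to 159, 154 and 119 (log2 fold change 1.26, SE 0.20, adjusted p = 7.85e-07). An ORR1B2 copy in intron 1 of Hpcal1, a calcium sensor gene, rose from 15.4, 18.5 and 17.0 to 60.9, 82.4 and 61.5 (log2 fold change 2.00, SE 0.32, adjusted p = 8.22e-07). In the MLT1 group the smallest adjusted p belonged to an MLT1J1 copy 147151 bp from Med13l, which rose from 40.8, 39.0 and 42.1 to 111, 126 and 69.9 (log2 fold change 1.33, SE 0.26, adjusted p = 0.000136).

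Other higher members, singled out after their values were seen for the genes they lay in or beside, included an MLT1A0 copy in an intron of Runx1t1, the mouse gene of the ETO part of the fusion protein. Its mean was 52.0 ± 5.43 in oil and 117 ± 36.7 in tamoxifen libraries (normalised tags, SD, n = 3 for both, log2 fold change 1.17, adjusted p = 0.000767). An ORR1E copy in Plcg2, a phospholipase of immune signalling, rose from 17.1 ± 1.70 to 55.7 ± 9.57 (log2 fold change 1.70, adjusted p = 0.0002). An MTD copy in Morrbid, a long non-coding RNA gene, rose from 6.29 ± 1.42 to 26.3 ± 8.26 (log2 fold change 2.07, adjusted p = 0.0128). An MTD copy in Fpr1, a receptor for bacterial peptides, rose from 17.1 ± 4.42 to 46.1 ± 9.44 (log2 fold change 1.42, adjusted p = 0.0111).

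Higher members often had company. Within 50000 bp of 30 of the 83 (36.1%) lay another peak, of any kind, that was called higher, against 4.97% of the members that were not called and 45.7% of the other peaks called higher. None of the 83 had a peak called lower within that distance, and neither did most members that were not called (0.623% had one). Only 3 pairs were members on both sides, near Rpap3, near Noct and near the Mrgpra genes.

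The lower members were few. The most reduced was an MT2B1 copy on chromosome 17 4243 bp from the snoRNA gene Snord52, 9468 bp beyond the 3′ end of Neu1, a sialidase gene, and 9664 bp beyond that of Hspa1b, an HSP70 chaperone gene. It held 260, 222 and 317 normalised tags after oil and 29.0, 42.3 and 77.3 after tamoxifen (log2 fold change -2.43, SE 0.42, adjusted p = 4.98e-06). Even the highest tamoxifen library had less than the lowest oil library by 2.87-fold. An MLT1C copy 3702 bp from Glo1, which encodes an enzyme that detoxifies methylglyoxal, fell from 69.5, 68.3 and 96.8 to 15.5, 25.6 and 44.7 (log2 fold change -1.45, SE 0.32, adjusted p = 0.0014). An MLT1K copy in intron 1 of 8030443G20Rik held 124, 116 and 108 after oil and 41.6, 41.2 and 78.3 after tamoxifen (log2 fold change -1.10, SE 0.24, adjusted p = 0.00147). An ORR1D1 copy in intron 5 of Nhlrc2 held 60.7, 61.5 and 76.2 after oil and 22.2, 17.8 and 37.3 after tamoxifen (log2 fold change -1.35, SE 0.31, adjusted p = 0.00281). In all of these the tamoxifen libraries lay below the oil libraries.

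Of the 9 lower members 2 lay within 10000 bp beyond a gene end (22.2%), against 18.9% of all members and 24.2% of all peaks. Among all peaks called lower the share was 44.0%, and 9 members are too few to read against it. The other 5 lower members were MTD near Foxl1, MTE2b 7042 bp beyond the 3′ end of E2f5 (nearest start 1810022K09Rik), MTE2b-int near Dek, MTC in Paqr7 (nearest start Aunip) and ORR1A4 near Lysmd3, with log2 fold changes from -1.06 to -1.75. The MTE2b-int copy near Dek, a chromatin protein gene, held 69.5, 52.7 and 52.9 after oil and 20.3, 12.3 and 38.2 after tamoxifen (adjusted p = 0.023). Of the 9 lower peaks 7 were in the authors' oil list alone and 2 in both lists, while 21.5% of all members were in the oil list alone. Those 7, MT2B1 near Snord52 among them, likewise entered only through the group where they were high, so their p-values are not free of that choice. The calls near 8030443G20Rik, Foxl1, Glo1 and Nhlrc2 and those in MTE2b, MTE2b-int and MTC were each lost when at least 1 of the other libraries was left out. The MT2B1 call near Snord52 and the MER74B call near Egr3 held without any 1 library. So did the higher calls of ORR1E near Rpap3, MTEb near Noct, MER54A, MTD near Thrb, ORR1B1 near Hsbp1, LTR87, ORR1B2 near Hpcal1 and MLT1J1 near Med13l.

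The sequence of the members differed from that of other distal peaks. Motifs were searched in the central 200 bp on both strands: GGAAGT for ETS, TGTGGT for RUNX, TGANTCA for AP-1, CAGCTG for the E-box, CCAAT for the CCAAT box, AGATAA for GATA factors, and the interferon-stimulated response element (ISRE), NF-kB, CEBP, CTCF, DUX and the glucocorticoid and estrogen response elements by name. The heat shock factor (HSF) motif was added after the values were seen. The ETS motif was in 36.4% of members, against 18.4% of all intron and Intergenic peaks and 23.5% of ERVK peaks. The RUNX motif was in 24.8% of members and 20.4% of all intron and Intergenic peaks. The CCAAT box was in 26.7% of members against 21.1%, in 35.0% of ERVK peaks, and in 5 of the 9 lower members, 20 of the 83 higher ones (24.1%) and 21.1% of the other intron and Intergenic peaks called lower. The HSF motif was in 4.51% against 4.11%. By contrast, CTCF was in 2.18% against 4.65%, and GATA was in 16.0% against 17.1%. The ISRE was in 1.53% against 2.13%, and 0 of the 124 members that held it were called, too few to read against the 1.13% of all members.

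**Figure D3:**
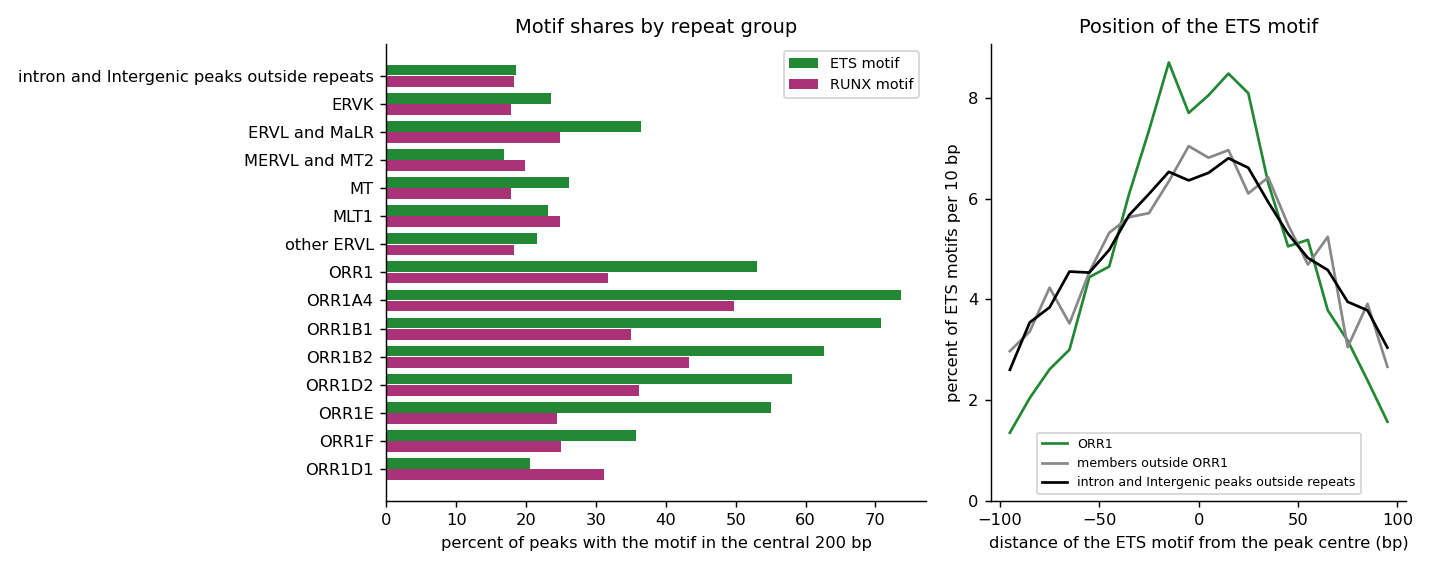
Left, percent of peaks with the ETS (green) or RUNX (purple) motif in their central 200 bp, by repeat group; right, distance of the ETS motifs from the peak centre in base pairs, as the percent of motifs in each 10 bp. The ETS motif was in 53.0% of ORR1 peaks and 70.8% of ORR1B1 peaks, and in ORR1 it lay nearer to the centre.

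The ETS motif belonged above all to ORR1. It was in 53.0% of ORR1 peaks, 26.1% of MT, 23.2% of MLT1, 21.6% of other ERVL and 16.9% of MERVL and MT2 peaks. Within ORR1 it ranged from 20.5% in ORR1D1 and 35.7% in ORR1F to 70.8% in ORR1B1 and 73.6% in ORR1A4. In ORR1 peaks 70.9% of the motifs were within 50 bp of the peak centre, with a median distance of 31 bp, against 61.4% and 40 bp in intron and Intergenic peaks outside repeats. The RUNX motif in ORR1 was not placed so, with 48.1% within 50 bp and a median distance of 52 bp.

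The stretch around it was common to many copies. The most frequent 20 bases centred on the motif in ORR1 peaks were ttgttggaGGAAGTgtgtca, which stood in the centre of 193 members (5.50% of ORR1 peaks). On all 21 chromosomes of mm10 there were 3117 exact copies of these 20 bases, and 208 of them (6.67%, 95% Wilson interval 5.85 to 7.60) lay in a peak, 199 of them in an ORR1 member. A further 2730 copies had the same flanks and 1 changed base within the 6 bases of the motif, and 62 of these (2.27%, 1.78 to 2.90) lay in a peak. The intervals cover counting error only. Counted from 1 at the first G of the motif, A4G copies were in peaks in 17 of 558 cases (3.05%), G1A in 5 of 412 (1.21%), and T6G in 0 of 378 (95% Wilson upper limit 1.01%), which by the rule of 3 counts allows a share of up to 0.794%. A change at base 3 was rare, with 6 of 94 copies in peaks (6.38%, 2.96 to 13.2), so its share could not be told from that of intact copies. Because the 20 bases were picked as the most frequent in peaks, the higher share of intact copies is in part fixed by that choice, and it is a description only. Of the 208 peaks with an intact copy 1 was called higher and 0 lower, near the 0.575% and 0.0659% of all peaks.

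**Figure D4:**
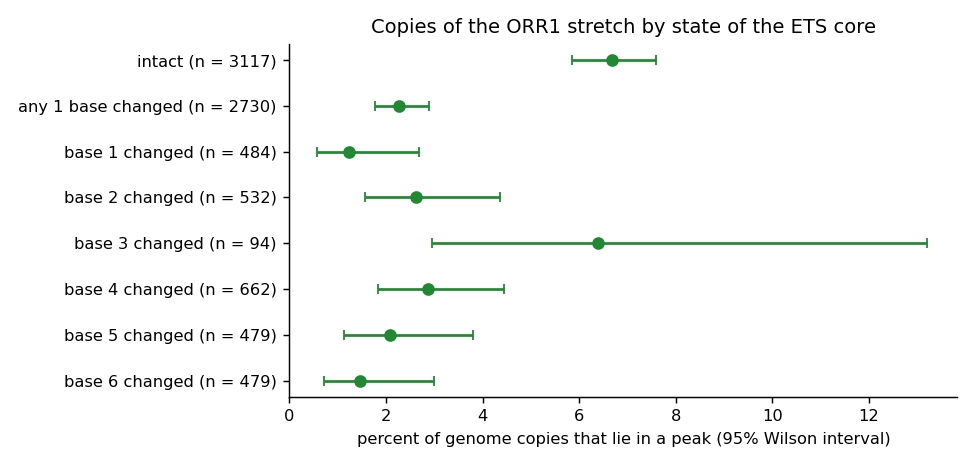
Percent of genome copies of the ORR1 stretch that lie in a peak, with 95% Wilson intervals, for an intact ETS core and for copies with 1 changed base, in all and by position from 1 to 6; numbers of copies are in brackets. Intact copies reached 6.67% and changed copies 2.27%.

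The RUNX motif was frequent in the higher members. It was in 44 of the 83 higher members (53.0%), against 36.3% of the other intron and Intergenic peaks called higher, and in 1 of 9 lower members. The ETS motif was in 45.8% of the higher members and 31.4% of the other higher peaks, GATA in 26.5% and 27.3%, and AP-1 in 10.8% and 13.9%. Members with RUNX alone were called higher in 26 of 1198 cases (2.17%), with both motifs in 18 of 816 (2.21%), with ETS alone in 20 of 2142 (0.934%) and with neither in 19 of 3963 (0.479%). The other intron and Intergenic peaks had 0.917% with RUNX alone, 2.21% with both, 0.886% with ETS alone and 0.413% with neither. The median log2 fold change was 0.08 with both motifs, 0.02 with RUNX alone, 0.00 with ETS alone and -0.05 with neither, and in each of these 4 classes the library medians of oil and tamoxifen overlapped. With both motifs they were 0.014, 0.106 and 0.146 in tamoxifen replicates 1, 3 and 4, and 0.015, -0.042 and 0.051 in oil replicates 1, 2 and 4. Outside ORR1 the shares called higher were 2.31% with RUNX alone and 0.319% with neither, so the pattern was not limited to that group. The RUNX share of the higher members was 45.0% without tamoxifen replicate 4 and 55.0% to 57.9% without each of the other libraries. These shares are descriptions, and a motif match is not a bound site.

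**Figure D5:**
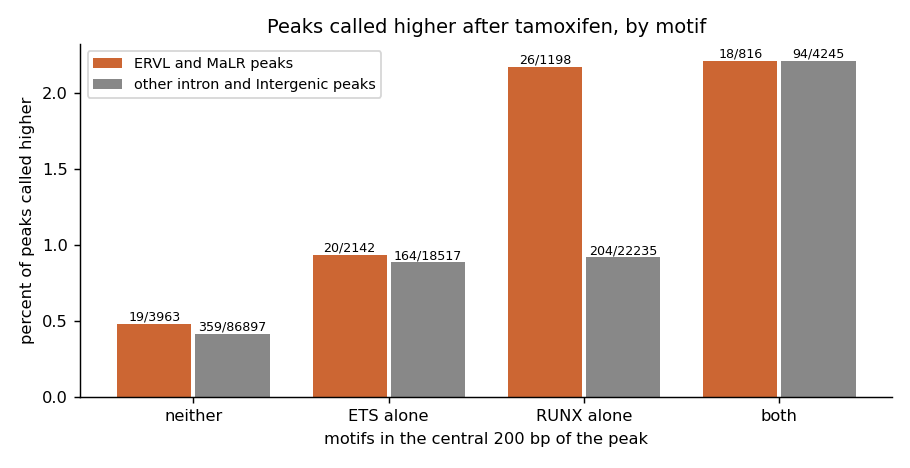
Percent of peaks called higher after tamoxifen by the motifs in their central 200 bp, for ERVL and MaLR peaks (orange) and other intron and Intergenic peaks (grey), with the number called over the number of peaks above each bar. The bars rise from 0.479% with neither motif to 2.17% with RUNX alone in the members, and with RUNX alone the other peaks reached 0.917%.

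The peaks near genes that silence or activate ERVL elements, sense nucleic acids or answer to interferon were too few to read against the 0.641% of all peaks called. Of 26 genes that silence or activate ERVL elements, TRIM28, SETDB1 and KDM1A genes among them, 22 were nearest to at least 1 peak within 100000 bp, and 0 of these 213 peaks was called in either direction by DESeq2 (14 had an unadjusted p under 0.05, where 8.98% of all peaks did, edgeR called 0, median log2 fold change -0.06). Among them were 12 ERVL or MaLR copies, such as the ORR1B1 copy near Smchd1 shown above and copies near Morc3, Chaf1b and Max. Of 89 peaks near genes that sense double-stranded RNA or DNA, 1 was higher, near Zbp1, and none of the 7 members there was called. Of 242 peaks near typical interferon-stimulated genes, which Usp18 restrains, 1 was higher, near Zbp1, which is in both lists, and 2 lower, near Uba7. The 10 ERVL and MaLR copies near these genes, such as an ORR1D1 copy near Usp18, an MTE2b pair near Mx1 and an ORR1B1 copy near Stat2, held no call.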

How the data were processed

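ATAC-seq tags were measured in 6 libraries. Per the labels and the study's methods, the authors mapped reads to mm10 with Bowtie2, found peaks with HOMER, merged them and counted tags in each peak without normalisation. The deposited tags are expected counts, since paired mates add 0.5 each, and at most 3 tags were kept per position. The deposited peak score was used only to choose members in 1 alternative. Versions are not given in the sources used here. Total tags ran from 57358372 to 74667822, and peaks with few tags are the least precise.

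After rounding to whole tags, all peaks were fitted with DESeq2 1.42.0 (Wald test, R 4.3.3), with calls at a fold over 2 and Benjamini-Hochberg adjusted p under 0.05. No peak was dropped or imputed. edgeR 4.0.16 was an alternative. The study's methods drop peaks within 3000 bp of a start site before testing. All peaks were kept here, and the narrower set was an alternative. Normalised tags are tags divided by DESeq2 size factors. The fitting code was run on simulated tags with known fold changes, which tests the code and not these calls. Sequences came from the RefSeq copy of GRCm38, the mm10 assembly, and no peak ran past a chromosome end. Nearest genes are those of the deposited annotation.

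Named peaks were the 8 higher and 8 lower of smallest adjusted p, the smallest in each group, the 5 strongest and the strongest of each group after oil, and called MERVL-int. The 8 higher and 8 lower were taken from called members whose oil and tamoxifen libraries did not overlap, which held for all called members. The members, lists and rules were chosen with earlier results of these data known. Replicate numbers 1 and 4 occur in both groups, but same-numbered libraries did not deviate together (r of -0.0481 and 0.0643), so they were not treated as pairs. All 15 pairs of libraries differed by a chi-square per degree of freedom above 1.0105, which counting noise alone exceeds in 0.1% of cases. The closest pair was oil replicates 1 and 2 (1.0288), followed by 1.18. The marker list of 1 further cell type is not reported here.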

Additional observations from a re-analysis of the deposited data

How the results depend on the processing

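The median log2 fold change of the members (-0.04 to 0.01 over all alternatives) and their share of tags moved by less than the spread between libraries in every alternative tried. For the share that spread, an SD of 0.0922 percentage points, was wider than the difference itself, 0.0119 with all libraries. The sign of this difference was not stable, from -0.0535 without tamoxifen replicate 4 to 0.0477 without tamoxifen replicate 3. The number of members called, 92 with all libraries, was 80 to 132 under edgeR, other scalings, filters and sets of peaks fitted, 14 among ERVL copies without MaLR, 50 among peaks of at least the median score, and 167 with no fold limit. It was 28 to 187 when 1 library was left out, lowest without tamoxifen replicate 3 (28) and highest without tamoxifen replicate 4 (187). Taking only some of the members lowers the count by construction. Why the count differed with the library left out was not tested.

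A replicate block could be fitted only on numbers 1 and 4, which do not pair the libraries, and it called 2 members, against 0.0307% of all peaks. The same 4 libraries without a block, an alternative chosen after seeing the data, as were the motif shares, called 5, against 0.075%. Under the replicate block these log2 fold changes kept their direction and were no longer called: ORR1E near Rpap3 1.41, MTEb near Noct 1.16, MER54A near Htr7 1.18, MTD near Thrb 1.49, ORR1B1 near Hsbp1 1.23, LTR87 near Tm9sf3 1.24, ORR1B2 near Hpcal1 1.91, MLT1J1 near Med13l 1.08, MERVL-int near Cept1 1.99, MLT1C near Glo1 -1.60, MLT1K near 8030443G20Rik -1.001, ORR1D1 near Nhlrc2 -1.23, MTD near Foxl1 -0.88, MTE2b near 1810022K09Rik -1.06, MTE2b-int near Dek -1.10 and MTC near Aunip -0.99. Calls lost without 1 library had log2 fold changes over all omissions of -1.95 to -1.14 (MLT1C near Glo1), -1.48 to -0.94 (MLT1K near 8030443G20Rik), -1.72 to -1.15 (ORR1D1 near Nhlrc2), -1.45 to -0.87 (MTD near Foxl1), -1.55 to -0.79 (MTE2b near 1810022K09Rik), -1.82 to -0.99 (MTE2b-int near Dek), -1.27 to -0.96 (MTC near Aunip) and 1.82 to 2.06 (MERVL-int near Cept1). The last was also lost with size factors from peaks outside repeats (1.90). Of 404 values of the 27 named peaks under the alternatives, 354 kept their side of the threshold and 50 lost the call, and none reversed among the called. The 354 include every value of the strongest copies, which were not called in the first place. All 50 losses fell on the called peaks, so 354 of 404 overstates how well the calls held. In 4 equal groups of rising tag count the share of members called higher was 0.443%, 0.443%, 1.72% and 1.48%, and in other intron and Intergenic peaks of the same ranges 0.415%, 0.594%, 0.927% and 0.541%. The part of depth in this was not tested.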
